A study of Mus musculus with 6 samples.

Results

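The genes described here make up the ATF4 arm of the integrated stress response together with the unfolded protein response of the endoplasmic reticulum (ER). They were chosen by symbol from a list of 39 names, of which 37 had a row among the 22609 genes counted, and the names Vldlr1 and Gdf15x had none. The genes Vldlr and Gdf15 were counted but are no members, and they are given with the wider lists. All 37 passed the filter on low counts. The question put to them was whether they rise when Fgf21 rises. RNA was sequenced from cultured adipocytes, grown and differentiated from the stromal vascular cells of inguinal white fat (iWAT) of male C57BL6 mice, which the sample labels give as 3 weeks old. The study held 3 control samples and 3 miR182 overexpression samples, the latter transfected with miR182 and the former with a control vector. The labels name electroporation, whereas the study's methods describe a miRNA mimic delivered with a lipid reagent and mice of another age. Neither source says whether the samples of a group came from separate mice or cultures, so the p-values below measure the spread between these samples, which may be technical.

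Cells under stress phosphorylate the translation factor eIF2 through kinases that sense unfolded ER protein, lack of amino acids, double-stranded RNA or lack of heme. Most translation then slows, while the mRNA of the transcription factor ATF4 is translated better and ATF4 induces genes for amino acid supply, redox balance and feedback. Unfolded protein in the ER also activates ATF6 by cleavage and IRE1, which splices Xbp1 mRNA, and both induce chaperones and degradation genes. In liver and fat, ATF4 is a known inducer of the hormone gene Fgf21. Phosphorylation, cleavage, splicing and translation are not visible in counts of reads per gene.

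Each sample had 25869810 to 28796712 reads counted on genes. The 8 adipocyte markers examined (Adipoq, Plin1, Fabp4, Pparg, Cidec, Lipe, Pnpla2 and Lpl) were all detected, and their summed level was 12950 to 13720 CPM (reads scaled to a common library size) in control and 8918 to 10070 CPM with miR182 overexpression, where 6 of the 8 were lower at an adjusted p under 0.05. In bulk RNA, fewer cells of a type and less RNA per cell cannot be told apart. Stromal and progenitor markers were lower too, in 5 of the 7 tested (1 was higher), with 3 past a 1.5-fold change (Cd34 -1.53, Pdgfra -0.86 and Pi16 -0.78 on the log2 scale) and a median log2 fold change of -0.40, against -0.41 for the adipocyte markers. Their summed level, 20310 to 21430 CPM in control and 19400 to 20250 CPM with miR182 overexpression, was mostly Col1a1 (means of 19250 and 18640 CPM), which did not pass the test. Macrophage markers summed to at most 15.8 CPM, with 4 of 8 under 10 reads in every sample, and endothelial markers summed to at most 9.15 CPM, with Cldn5 at 0 reads. Interferon-response genes set apart 1 sample of each group, with a sum of 212.1 CPM in control replicate 1 against 385.3 and 415.2 CPM in the other controls, and 739.1 CPM in miR182 overexpression replicate 1 against 355.8 and 355.9 CPM. The part of these shifts in the results below was not tested, and the main values are also given without both of those samples. Mature miRNAs have no poly(A) tail and are lost when poly(A) RNA is selected. No sample had a read on the Mir182 gene (0 in all 6), so the overexpression itself could not be read from the counts.

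More members rose than fell, nearly all by less than 1.5-fold. At an adjusted p under 0.05 (edgeR's quasi-likelihood test, Benjamini-Hochberg adjustment over all 13117 genes tested), 25 of the 37 members differed between the groups, 20 higher and 5 lower with miR182 overexpression. Over all genes tested 46.7% passed the same threshold, 23.2% higher and 23.5% lower, so the share of members that rose (54.1%) was above the background and the share that fell was below it. The 3 samples of each group did not overlap in 20 members that were higher and 5 that were lower, against 27.3% and 27.5% of all genes. The median log2 fold change of the members was 0.12, and that of all genes was -0.0043. With the study's cutoffs of a 1.5-fold change and an adjusted p under 0.05, 3 of the 37 members passed. These were Chac1, which was higher, and Dnajb9 and Pdia4, which were lower. The share of members was close to that of all genes, of which 7.45% passed (1.97% higher and 5.48% lower). Without both samples numbered 1, 19 members were higher and 8 lower, the median was 0.10 and 1 member (Pdia4) passed both cutoffs.

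**Figure D1:**
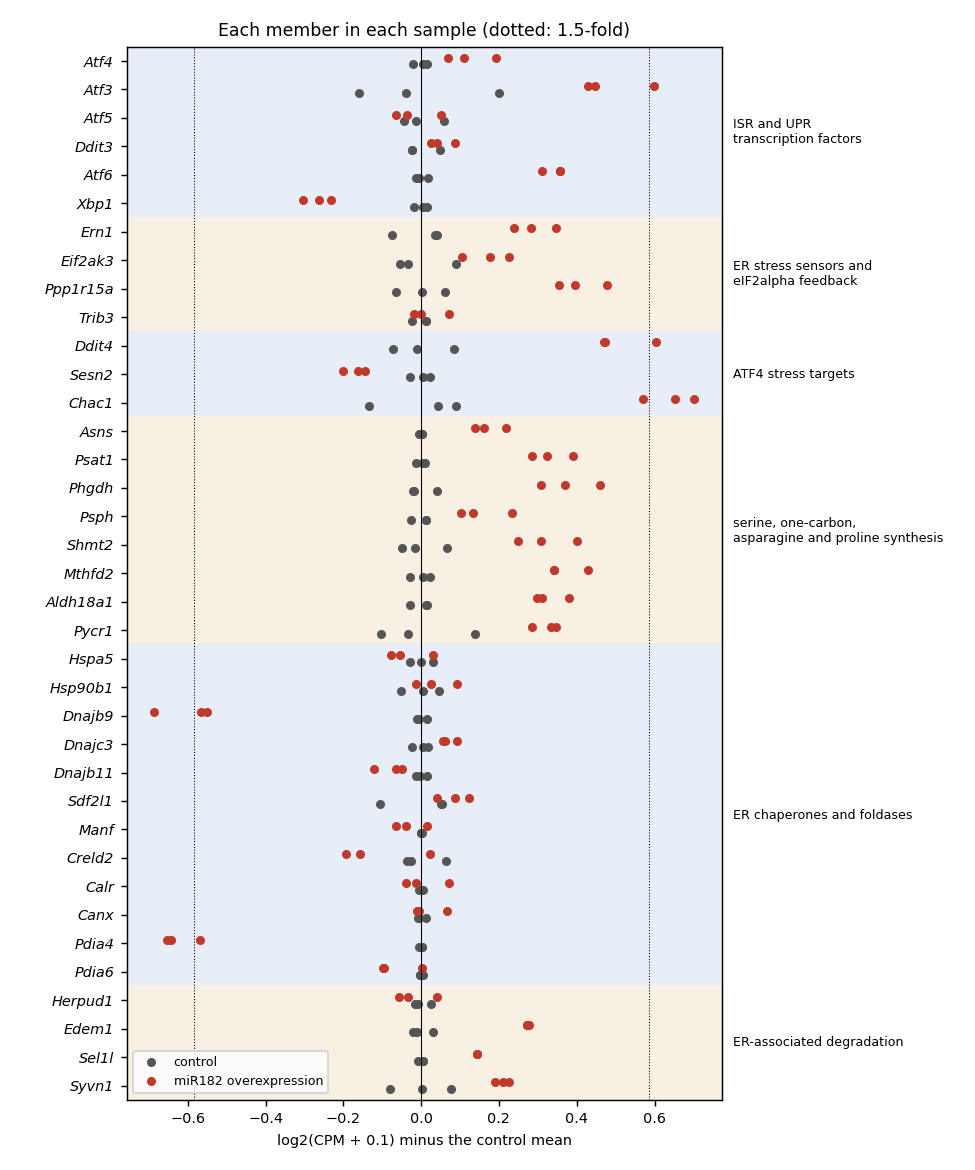
Each of the 37 members in each sample, as log2(CPM + 0.1) minus the mean of the 3 control samples, with control in grey, miR182 overexpression in red and dotted lines at a 1.5-fold change. All 8 genes of amino acid and one-carbon synthesis lie to the right of their controls, while most ER chaperones lie on zero and Dnajb9 and Pdia4 lie near the left dotted line.

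Fgf21, which encodes a hormone of the fasting and stress response and is no member, was read at 0.943, 1.49 and 1.42 CPM in the 3 control samples and at 2.77, 3.57 and 3.65 CPM with miR182 overexpression. The groups did not overlap, although these are only 24 to 39 reads against 81 to 103 reads. Its log2 fold change was 1.37 ± 0.19 (SE), a 2.58-fold rise (edgeR adjusted p = 4.31e-05), which exceeded that of every member. Among the samples with miR182 overexpression, Fgf21 was lowest in replicate 1. The median log2 deviation of the members from the control mean was highest there, at 0.12 against 0.11 and 0.07. For the ER stress sensors and eIF2 feedback genes it was lowest there, at 0.17 against 0.23 and 0.29. Whether members follow Fgf21 from sample to sample was not tested. Nr1d1, a repressor of Fgf21 transcription, fell by 0.22 on the log2 scale (edgeR adjusted p = 0.00299). Of the exon bases of Nr1d1, 8.55% lie opposite an antisense gene.

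A promoter element read by ATF4, the CARE, was searched on both strands as TGATGNAAN in a 300-base window of RefSeq (GRCm38.p6) that runs from 250 bases before to 50 bases after each gene's start. The window was found for 35 of the 37 members. The letters occurred in 6 of these (17.1%), in 4.5% of the 27025 genes with a window and in 2.74% of the 9226 of those that were tested. They are shown for Fgf21 and for the 4 members that held them and rose, read on the strand of the match with the fixed letters of the element in capitals.
Fgf21 (chr7:45615612-45615640, + strand): cctggacggaTGATGcAAtgggggggtct
Chac1 (chr2:119351038-119351066, - strand): ctggcaggagTGATGcAAcggcagggaag
Atf3 (chr1:191183426-191183454, + strand): gcggacttggTGATGcAAgtgcgagaagg
Asns (chr6:7693214-7693242, - strand): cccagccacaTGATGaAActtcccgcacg
Pycr1 (chr11:120643833-120643861, - strand): gccctgtgtaTGATGcAAtgcacaaggct
The other 2 members with these letters, Trib3 and Herpud1, had log2 fold changes of 0.02 and -0.02 and did not pass the test. A match is a description of the letters in this window and shows no binding. The members were listed as genes of these pathways, so a share above that of all genes is a property of the list and not a result of these data.

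Among the 6 transcription factors, Atf3, Atf6 and Atf4 rose, Xbp1 fell, and Ddit3 and Atf5 did not pass the test. Over all genes tested, 23.2% rose and 23.5% fell. Atf4 itself changed little at the level of mRNA. It stood at 349, 347 and 341 CPM in control and at 395, 373 and 363 CPM with miR182 overexpression, so that the groups did not overlap but the whole difference was 9.02% (log2 fold change 0.12 ± 0.033, edgeR adjusted p = 0.00618). Atf3, a stress-induced repressor and target of ATF4, was at 6.36, 6.93 and 8.20 CPM against 9.63, 9.75 and 10.8 CPM. Every sample with miR182 overexpression was above every control (0.49 ± 0.099, edgeR adjusted p = 0.000976).

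Ddit3, which encodes CHOP, the factor most often used as a marker of a strong ER stress response, had 81.0, 85.2 and 81.1 CPM in control and 87.6, 84.8 and 83.8 CPM with miR182 overexpression. Here the groups overlapped. The log2 fold change of 0.05 ± 0.035 did not pass the test (edgeR adjusted p = 0.248), and its 95% interval ran from -0.02 to 0.12. Atf5, a related factor downstream of eIF2 phosphorylation, had a log2 fold change of -0.02 with an interval from -0.09 to 0.05.

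The factors of the ER arms moved in opposite directions. Atf6, the ER-bound factor released by cleavage, was at 115, 114 and 117 CPM in control and at 143, 148 and 148 CPM with miR182 overexpression. The groups were well apart (0.34 ± 0.029, edgeR adjusted p = 3.42e-07). Xbp1, whose spliced form drives chaperone and degradation genes, was at 206, 208 and 203 CPM against 167, 175 and 172 CPM. All samples with miR182 overexpression were below all controls, and Xbp1 fell by 0.27 ± 0.029 on the log2 scale (edgeR adjusted p = 4.11e-06).

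Of the 4 genes for ER stress sensors and eIF2 feedback, 3 rose, against 23.2% of all genes tested. Ern1, which encodes the sensor IRE1 that splices Xbp1 mRNA, was at 40.9, 37.9 and 41.1 CPM in control and at 47.1, 48.6 and 50.8 CPM with miR182 overexpression. Its groups did not overlap (0.29 ± 0.048, edgeR adjusted p = 0.000215). Eif2ak3, which encodes the eIF2 kinase PERK, was at 32.8, 29.6 and 30.0 CPM against 33.1, 34.8 and 36.0 CPM. The highest control and the lowest treated sample almost touched (0.17 ± 0.055, edgeR adjusted p = 0.0201). Without control replicate 2, control replicate 3 or miR182 overexpression replicate 3 the adjusted p was 0.0835, 0.0723 and 0.0692, and 8.05% of the exon bases of Eif2ak3 lie opposite an antisense gene. Ppp1r15a, which encodes GADD34, the phosphatase subunit that reverses eIF2 phosphorylation, was at 73.97, 70.9 and 67.7 CPM against 98.6, 90.7 and 93.2 CPM. It rose by 32.9% with no overlap between the groups (0.41 ± 0.041, edgeR adjusted p = 2.08e-06). Trib3, a pseudokinase that is induced by ATF4 and CHOP and restrains them, had a log2 fold change of 0.02 with an interval from -0.04 to 0.08 and did not pass.

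**Figure D2:**
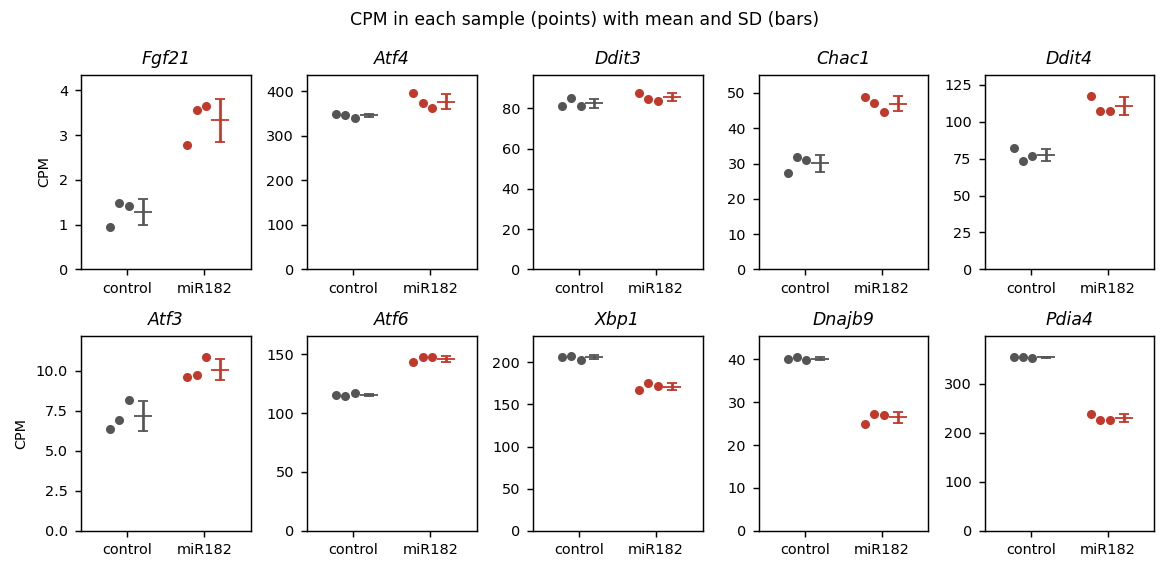
CPM of Fgf21 and 9 members in each of the 3 control and 3 miR182 overexpression samples (points), with the group mean and SD (bars), each axis starting at 0. Chac1, Ddit4, Atf3 and Atf6 lie above their controls without overlap, Xbp1, Dnajb9 and Pdia4 lie below them, and the Ddit3 samples overlap.

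The 3 stress targets of ATF4 all passed the test, 2 of them higher, where 46.7% of all genes passed and 23.2% were higher. Chac1 encodes an enzyme that degrades glutathione and is among the most responsive ATF4 targets. It was at 27.4, 32.0 and 31.0 CPM in control and at 49.0, 47.2 and 44.6 CPM with miR182 overexpression. The groups were clearly separate and the rise was 1.56-fold (0.64 ± 0.060, edgeR adjusted p = 9.09e-07), the highest among the members. Without control replicate 1, which had the lowest value, the log2 fold change was 0.58 and stood just under the 1.5-fold line at 0.585. Ddit4, which encodes REDD1, an inhibitor of the growth kinase mTORC1, was at 81.9, 73.5 and 76.7 CPM against 118, 107.3 and 107.2 CPM. It rose by 43.1% without overlap (0.52 ± 0.045, edgeR adjusted p = 5.17e-07). Sesn2, which encodes a leucine sensor that also restrains mTORC1, was at 76.3, 78.9 and 78.1 CPM against 69.5, 67.7 and 70.3 CPM. It moved the other way, with all treated samples below all controls (-0.17 ± 0.034, edgeR adjusted p = 0.00106).

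Serine, one-carbon, asparagine and proline synthesis was the one group in which every member rose. All 8 genes passed the test, by 0.16 to 0.38 on the log2 scale with a median of 0.33, and in none did the groups overlap. Over all genes tested, 23.2% passed as higher, and 27.3% were higher without overlap. None reached 1.5-fold. The count was 8 of 8 under all 14 other settings tried, including the one without both samples numbered 1, where the median was 0.31.

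The serine pathway begins with Phgdh, which was at 29.11, 29.10 and 30.3 CPM in control and at 40.7, 38.1 and 36.5 CPM with miR182 overexpression. It rose by 30.3% (0.38 ± 0.052, edgeR adjusted p = 3.64e-05). Psat1, which catalyses the next step, was at 284, 287 and 288 CPM against 375, 358 and 349 CPM. The lowest treated sample was far above the highest control (0.33 ± 0.031, edgeR adjusted p = 8.41e-07). Psph, which completes serine, rose by 0.16 on the log2 scale, and 10.4% of its exon bases lie opposite another gene.

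Serine feeds the mitochondrial folate cycle through Shmt2, at 168, 155 and 159 CPM in control and at 212, 191 and 199 CPM with miR182 overexpression. It rose by 24.9% (0.32 ± 0.040, edgeR adjusted p = 1.59e-05). Mthfd2, the next enzyme of that cycle, was at 101, 98.5 and 102 CPM against 135, 127.4 and 127.2 CPM. Its groups lay far apart relative to their spread (0.37 ± 0.033, edgeR adjusted p = 6.03e-07).

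The enzymes of proline synthesis rose by about as much. Aldh18a1, which starts the pathway from glutamate, was at 165.4, 160.8 and 165.7 CPM against 213.5, 201.5 and 203.2 CPM (0.33 ± 0.031, edgeR adjusted p = 9.02e-07). Pycr1, which completes proline, was at 28.7, 32.4 and 27.4 CPM against 35.8, 37.1 and 37.4 CPM. The controls of Pycr1 spread more widely, yet all lay below the treated samples (0.32 ± 0.060, edgeR adjusted p = 0.000583). Asns, which makes asparagine and is a standard ATF4 target, was at 227.6, 226.7 and 227.9 CPM against 264.7, 254.5 and 250.5 CPM. Its controls were almost identical and its rise of 12.8% was among the smaller ones (0.17 ± 0.029, edgeR adjusted p = 0.000195).

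The 12 ER chaperones and foldases did not rise as a group. Of these, 4 passed the test, Dnajc3 higher and Pdia4, Dnajb9 and Dnajb11 lower, and the median log2 fold change was -0.03. The share that was higher, 8.33%, was below the 23.2% of all genes. The share that was lower, 3 of 12, was close to the 23.5% of all genes. Hspa5, which encodes BiP, the main ER chaperone and a standard readout of the unfolded protein response, averaged 1585 CPM in control and 1549 CPM with miR182 overexpression. Its groups overlapped and its log2 fold change of -0.03 had an interval from -0.10 to 0.03. The intervals of Calr and Canx, the lectin chaperones, ran from -0.06 to 0.07 and from -0.04 to 0.07, and that of Hsp90b1, the ER member of the HSP90 family, from -0.04 to 0.10. Manf, Sdf2l1, Creld2 and Pdia6 did not pass either, with log2 fold changes from -0.11 to 0.08. For Hsp90b1 and Manf, 15.7% and 9.25% of exon bases overlap other genes.

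Pdia4 and Dnajb9 stood apart from the other chaperones. Pdia4, a protein disulfide isomerase, was at 353.9, 354.1 and 352.2 CPM in control and at 238.4, 226.2 and 224.8 CPM with miR182 overexpression. The controls differed by less than 2 CPM, and Pdia4 fell by 34.96% without overlap (-0.62 ± 0.029, edgeR adjusted p = 9.82e-10). Dnajb9, which encodes the BiP co-chaperone ERdj4, was at 40.0, 40.6 and 39.9 CPM against 24.9, 27.4 and 27.1 CPM. It fell by 34.2% without overlap (-0.60 ± 0.051, edgeR adjusted p = 3.38e-07), and without miR182 overexpression replicate 1 the log2 fold change of -0.56 no longer reached 1.5-fold. The co-chaperones Dnajc3 and Dnajb11 had log2 fold changes of 0.07 and -0.08 with edgeR adjusted p values of 0.0488 and 0.0486, and they no longer passed in 6 and 5, respectively, of the 6 fits that left out a single sample. Without both samples numbered 1, no chaperone was higher and 6 were lower, with Hspa5 (-0.08), Pdia6 (-0.10) and Creld2 (-0.14) now past the test and Dnajc3 not.

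The ER stress element (ERSE), read by ATF6 and XBP1 with the factor NF-Y, was searched as CCAAT and CCACG separated by 9 bases of any kind, on both strands of the same windows. It occurred in 8 members (22.9%), 7 of them among the 11 chaperones with a window. Of all genes with a window 0.137% held it, and of those that were tested 0.173%. As with the CARE, this excess is a property of how the list was chosen. The shorter ERSE-II, ATTGG and CCACG separated by 1 base, occurred in Herpud1 and Dnajb11, in 0.0444% of all and in 0.065% of those tested. The UPRE, TGACGTGG, occurred in 0 members, in 0.714% of all and in 1.11% of those tested. Matches of 4 chaperones are shown because the genes did not pass the test although they carry the full element, with its fixed letters in capitals.
Hspa5 (chr2:34772020-34772048, + strand): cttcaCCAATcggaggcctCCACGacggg
Calr (chr8:84847070-84847098, + strand): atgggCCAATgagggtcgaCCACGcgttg
Hsp90b1 (chr10:86705633-86705661, - strand): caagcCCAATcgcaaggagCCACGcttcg
Pdia6 (chr12:17266486-17266514, + strand): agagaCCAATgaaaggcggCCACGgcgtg
Of the 10 members with either ERSE form, 2 rose (Dnajc3 and Syvn1), 1 fell (Dnajb11) and 7 did not pass the test, and the median log2 fold change was -0.0041. Of the 6 members with the CARE letters, 4 rose and 2 did not pass, with a median of 0.25. Of all 37 members 20 rose, and 4 of these 20 held the CARE letters. The median was 0.08 over the 31 members without CARE letters and 0.17 over the 27 without either ERSE form. Both of these sets include Atf6 and Manf, which had no window. No test between members with and without an element was made.

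Of the 4 members for the disposal of misfolded ER protein, 3 rose by small amounts and Herpud1 did not pass the test. Over all genes tested, 23.2% rose. Related genes of the wider lists moved both ways, with Edem3 higher (0.25) and Derl1 (-0.51), Derl3 (-0.64), Derl2 (-0.12) and Os9 (-0.10) lower on the log2 scale. Edem1, which hands misfolded glycoproteins to degradation, was at 187, 192 and 185.5 CPM in control and at 227.8, 227.1 and 227.2 CPM with miR182 overexpression. The treated samples were nearly identical and all above the controls (0.27 ± 0.027, edgeR adjusted p = 1.78e-06). Syvn1, the ubiquitin ligase HRD1, was at 80.8, 76.7 and 72.4 CPM against 87.3, 88.5 and 89.6 CPM, with no overlap (0.21 ± 0.039, edgeR adjusted p = 0.000609). Its partner Sel1l was at 269.5, 269.7 and 267.0 CPM against 296.9, 296.6 and 296.9 CPM. This difference of 10.4% was small but far beyond the spread of either group (0.14 ± 0.026, edgeR adjusted p = 0.000385). Herpud1, an adaptor of the same ligase, had a log2 fold change of -0.02 and an interval from -0.08 to 0.05.

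The 3′-UTRs of the members were also searched for a match to miR-182-5p. The guide strand of miR-182, printed from RefSeq (GRCm38.p6, chr6:30165962-30165986, - strand), carries its seed, bases 2 to 8, in capitals.
mmu-miR-182-5p: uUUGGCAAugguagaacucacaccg
The matching letters, TTGCCAA, were searched in the longest 3′-UTR that GENCODE M21 (GRCm38) gives for each gene. They occurred in 6 of the 37 members (16.2%) and in 14.1% of the 11443 genes tested with a 3′-UTR, so the members as a whole were close to the background. These 6 were 4 of the 5 members that fell (Pdia4, Dnajb9, Xbp1 and Sesn2), 1 of the 20 that rose (Pycr1) and 1 of the 12 that did not pass (Pdia6). The 6 sites are shown with the match in capitals.
Pdia4 (chr6:47796141-47796162, - strand): tttaaaagtctTTGCCAAatca
Dnajb9 (chr12:44206296-44206324, - strand): cttatgacataTTGCCAAgaaattgtgtt
Xbp1 (chr11:5525194-5525222, + strand): ggaggatacttTTGCCAAtgaacttttcc
Sesn2 (chr4:132492810-132492838, - strand): gccaagaatgcTTGCCAAaaacaaacaaa
Pdia6 (chr12:17284641-17284669, + strand): accccagtgggTTGCCAAgttaacttcac
Pycr1 (chr11:120635933-120635961, - strand): gggctgagggcTTGCCAAtcacgatgcat
The median log2 fold change was -0.22 over these 6 members, 0.16 over the other 31, and -0.06 over all 1610 tested genes that hold the match. The match was found after the fold changes of the members were known, and it is given as a description of letters and not of binding. How often the match occurs among all genes that fell was not counted, so the members that fell have no background of their own.

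**Figure D3:**
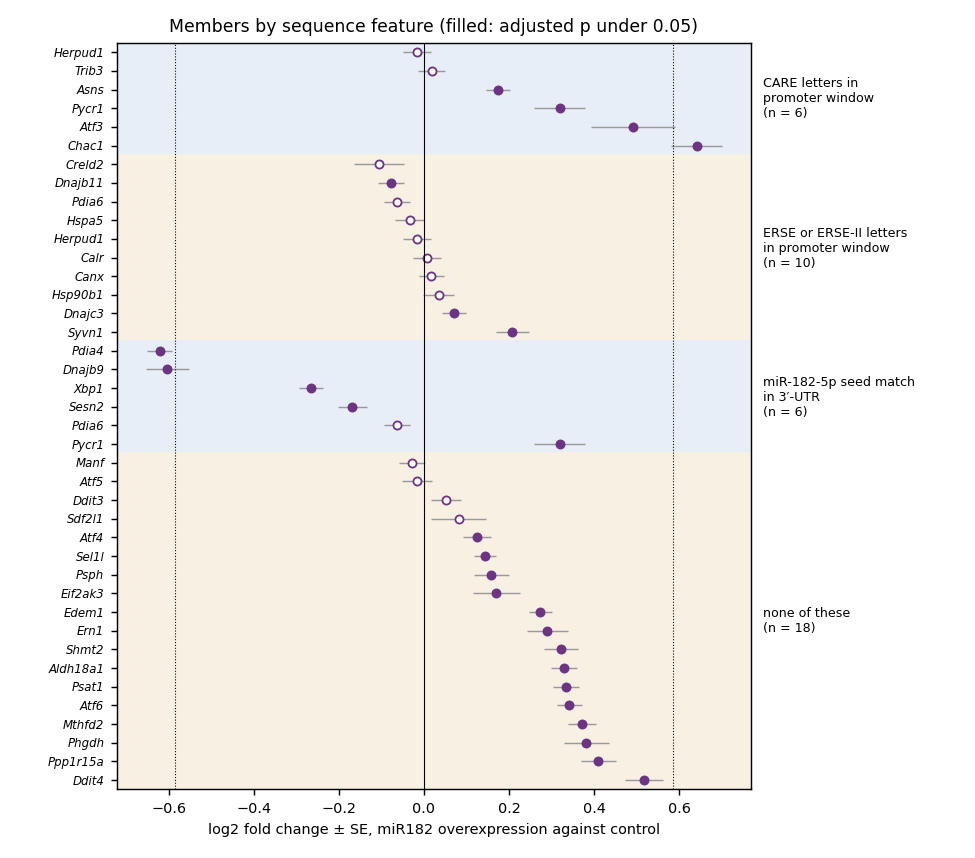
Log2 fold change of each member with its SE, filled where the adjusted p was under 0.05, grouped by CARE letters, ERSE or ERSE-II letters, the miR-182-5p seed match or none of these (Atf6 and Manf had no promoter window and appear under none), with dotted lines at 1.5-fold. A member with 2 features appears under both, and 4 of the 6 seed-matched genes lie left of zero with filled points.

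Further genes of the pathway were read from 5 wider lists, of which 80 of 81 genes were tested. Of these, 45 were higher and 14 lower at an adjusted p under 0.05, and their median log2 fold change was 0.15. Over all genes tested, 23.2% were higher and 23.5% lower, which is the background for each list below. Among 9 amino acid transporters regulated by ATF4, 7 were higher and 2 lower, and among 13 tRNA synthetase and tRNA export genes 12 were higher and none lower. Of 13 genes for eIF2 kinases, eIF2, eIF2B and their partners, 8 were higher and none lower, which fell to 4 without both samples numbered 1. One of these 8 was Eif2ak2, which encodes the interferon-induced eIF2 kinase PKR and was at 54.4, 73.7 and 72.9 CPM in control and at 109.8, 75.2 and 74.2 CPM with miR182 overexpression, so that the 2 samples that stood apart in interferon-response genes were also its lowest and highest (0.37 ± 0.13, edgeR adjusted p = 0.0331). Of 16 other ATF4 and CHOP targets, 8 were higher and 6 lower. Of 29 other ER genes tested, 10 were higher and 6 lower.

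Slc7a11, the cystine importer that supplies glutathione synthesis, rose most among these genes. It was at 22.0, 22.7 and 21.9 CPM in control and at 42.4, 42.1 and 38.4 CPM with miR182 overexpression, a 1.84-fold rise with no overlap (0.88 ± 0.054, edgeR adjusted p = 1.28e-08). Stc2, a secreted glycoprotein induced by ER stress, also passed both cutoffs (0.80 ± 0.082, edgeR adjusted p = 2.67e-06). Slc7a5 and Slc7a1, the importers of large neutral and of cationic amino acids, rose by 0.41 and 0.49 on the log2 scale. In the other direction, Shmt1, the cytosolic counterpart of Shmt2, fell by 0.66 and Derl3, an ER degradation factor read at 1.03 to 2.08 CPM, fell by 0.64, and both passed both cutoffs. Derl1, another ER degradation factor, fell by 0.51, Nfe2l1, a regulator of proteasome genes, by 0.23, and Vldlr, a lipoprotein receptor and ATF4 target, by 0.21. Gdf15, from the list of other ATF4 and CHOP targets, rose by 0.46 on the log2 scale without overlap (edgeR adjusted p = 0.000119).

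For comparison, genes of 2 other stress systems were counted. Of 8 mitochondrial chaperones and proteases, 1 was higher (Lonp1) and 2 lower, with a median log2 fold change of -0.02. Of 10 cytosolic heat shock genes, 4 were higher and none lower, with a median of 0.08. The shares over all genes tested were 23.2% higher and 23.5% lower. No test between these lists and the members was made.

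**Figure D4:**
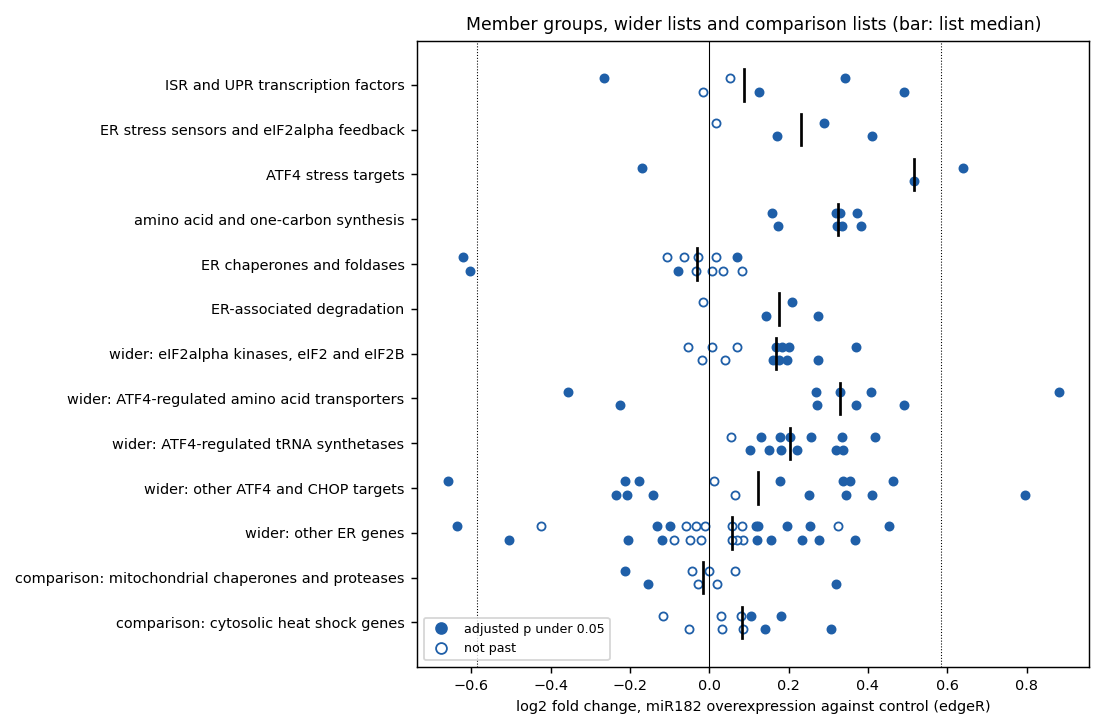
Log2 fold change of every tested gene in the 6 groups of members, the 5 wider lists and the 2 comparison lists, filled where the adjusted p was under 0.05, with a bar at each list's median and dotted lines at 1.5-fold. The amino acid synthesis genes and the tRNA synthetases lie to the right of zero, whereas the ER chaperones centre on zero.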

How the data were processed

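Per the labels, poly(A)-selected, strand-marking libraries were made from total RNA. The submitters' processing notes name bcl2fastq, TopHat2, HTSeq and the mouse build mm9, and neither versions nor counting by strand is given in the sources used here. For each sample the authors deposited a list of read counts by gene symbol, without normalization. Its 5 tally lines were left out. They held 12.7% to 13.0% of uniquely aligned reads outside genes and 0.652% to 0.667% ambiguous between genes, and multiply aligned reads were kept apart, so near-identical copies can lose reads.

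Counts were fitted in R 4.3.3 with edgeR 4.0.16 (TMM factors, filterByExpr at its default minimum count of 10, then glmQLFit with glmQLFTest, group only) on all 6 samples, two-sided, with adjustment over 13117 genes. CPM used TMM-scaled library sizes, with 0.1 added before log2 in the plot by sample. The 95% intervals are the log2 fold change ± 1.96 SE. Replicates of a group differed by more than sampling noise. Alternatives were DESeq2 1.42.0, limma-voom (limma 3.58.1), other size factors, no filter, a filter of 10 counts per sample throughout, a replicate block, each sample left out in turn, a 2-fold cutoff and, chosen after seeing the data, both samples numbered 1 left out. The fits were also run on simulated data in which the changed genes changed 2-fold. That is more than any member changed, so this run does not show how well changes as small as theirs are recovered.

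The members and lists were chosen with earlier results of these data known. Values in every sample are given for Fgf21, for 6 regulators (Atf4, Ddit3, Xbp1, Atf6, Ern1 and Eif2ak3), for members past both cutoffs and for further members by p up to 24 genes. From the wider lists, genes past both cutoffs are named, and the 3 that rose and 3 that fell at the smallest p. Eif2ak2, Gdf15, Lonp1, Edem3, Derl2, Os9 and the stromal markers were named after their values were seen. Sequences come from RefSeq and GENCODE M21 on GRCm38, which is not the build of the counts.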

Additional observations from a re-analysis of the deposited data

How the results depend on the processing

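Over the 14 alternatives, Fgf21 and Pdia4 passed both cutoffs in all, and Chac1 and Dnajb9 in 12. Of 518 member values, 477 kept their direction and side of the test, 25 no longer passed and 5 newly passed, these 30 in 6 members (Creld2, Dnajb11, Dnajc3, Eif2ak3, Hspa5 and Pdia6). The other 11 changed sign, all in 6 members that did not pass the test in either fit (adjusted p of 0.439 or more). Without both samples numbered 1 the log2 fold changes were -0.0282 for Calr, -0.0112 for Canx, -0.0212 for Hsp90b1 and -0.0034 for Trib3, and upper-quartile factors gave -0.0044 for Calr. Leaving out single samples gave -0.0491 to 0.013 for Atf5, -0.0249 to 0.0345 for Calr, -0.0072 to 0.0348 for Canx, -0.0445 to 0.0086 for Herpud1 and -0.0085 to 0.0402 for Trib3. A 2-fold cutoff left 280 genes (60 higher, 220 lower) and 0 members. Without both samples numbered 1, members past both cutoffs were 1 (0 higher, 1 lower), 8 members were lower by adjusted p alone and the member median was 0.10. Leaving out single samples gave 902 to 1011 genes past both cutoffs (221 to 284 higher, 679 to 728 lower), 2 to 4 members (0 to 2 higher, 1 to 2 lower), 22 to 26 members by adjusted p alone (18 to 19 higher, 4 to 7 lower) and member medians from 0.0904 to 0.1448. Without control replicate 3, Atf3 also passed both cutoffs (log2 fold change 0.60).

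Whether the same replicate numbers in both groups mark paired samples is not stated. Samples sharing a number departed from their groups' means with correlations of -0.185, -0.0436 and -0.0785. Correlations between samples with different numbers were not computed, so these values cannot decide whether the numbers pair the samples. With the replicate block, 925 genes passed both cutoffs (228 higher, 697 lower), 3 members did (1 higher, 2 lower), 23 members passed by adjusted p alone (19 higher, 4 lower) and the member median was 0.12.

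The depth limits low genes such as Fgf21 more than most members. Overlapping genes were not separated, since counting by strand was not stated.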
